A study of Mus musculus with 8 samples.

Results

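The genes described here were 10 feedback regulators and downstream transcription factors of the mitogen-activated protein kinase (MAPK) pathway. Dusp4, Dusp5, Dusp6, Spry1, Spry2, Spry4, Spred1, Spred2, Etv4 and Etv5 were chosen by name from the 24015 genes of the count table. They were followed in E11.5 mouse embryos, in the aorta-gonad-mesonephros region (AGM) with the vitelline and umbilical arteries (AGM+VU). WT embryos were compared with Sl/Sl embryos, homozygous for a Steel deletion that takes in Kitl, the ligand of the receptor Kit, and both genotypes were on a C57BL/6 background. From each genotype, hematopoietic clusters were sorted as Ter119- VE-Cadherin+ Kit+ cells and endothelium as Ter119- VE-Cadherin+ Kit- CD41- CD45- cells. The 4 groups were therefore WT clusters, Sl/Sl clusters, WT endothelium and Sl/Sl endothelium, with 2 libraries of 100 cells in each. Cells came from pooled embryos of 1 genotype in 2 sorting experiments that the sources used here do not tie to single libraries, so sorting experiment and sample cannot be told apart. In the Sl/Sl embryos every cell carries the deletion, which is not restricted to the endothelium.

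Receptor tyrosine kinases such as Kit, the VEGF receptors and the FGF receptors signal through Ras and the kinase cascade that ends in ERK. Active ERK induces genes whose products limit the same pathway: the Dusp phosphatases remove phosphate from MAP kinases, and the Sprouty (Spry) and Spred proteins act upstream, between receptor and Raf. Etv4 and Etv5 are ETS transcription factors of the PEA3 family, commonly read out downstream of FGF and other receptors. Since several of these genes are themselves induced by ERK, their RNA is widely used as a readout of receptor signaling.

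None of the members shared exon bases with another gene of the table, and all 10 passed the filter on low counts that left 13908 genes for testing. Their abundance differed widely. Dusp6, Spry1, Spry2, Spry4, Spred1 and Etv5 were counted in all 8 libraries, with total counts over the libraries from 709 for Spry1 to 20001 for Dusp6. Dusp4, Dusp5, Spred2 and Etv4 had 0 counts in at least 1 library and between 49 and 192 counts in total. Sequences upstream of the annotated starts are shown for 3 members, because Dusp6 and Etv5 carry the main contrasts described here and Dusp5 alone held a motif for the serum response factor, which acts with ERK-controlled cofactors. Each run is the 250 bases before the start from RefSeq on GRCm38.p6, 5′ to 3′ on the strand of the gene (for Etv5, which has 2 starts in the table, the one farther upstream), and capitals mark the CArG box, searched as CCATAT, then 2 bases of any kind, then GG.
Dusp6, chr10:99262981-99263230, plus strand: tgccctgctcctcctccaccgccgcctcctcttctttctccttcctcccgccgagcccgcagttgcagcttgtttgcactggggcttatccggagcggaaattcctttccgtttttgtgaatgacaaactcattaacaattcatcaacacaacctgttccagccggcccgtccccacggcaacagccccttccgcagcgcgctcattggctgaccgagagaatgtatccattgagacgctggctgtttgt
Etv5, chr16:22439571-22439820, minus strand: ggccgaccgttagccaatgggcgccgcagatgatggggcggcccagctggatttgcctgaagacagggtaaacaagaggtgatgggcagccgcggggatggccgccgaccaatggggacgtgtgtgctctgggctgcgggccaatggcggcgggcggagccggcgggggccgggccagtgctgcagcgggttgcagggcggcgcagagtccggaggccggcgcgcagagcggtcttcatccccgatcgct
Dusp5, chr19:53528895-53529144, plus strand: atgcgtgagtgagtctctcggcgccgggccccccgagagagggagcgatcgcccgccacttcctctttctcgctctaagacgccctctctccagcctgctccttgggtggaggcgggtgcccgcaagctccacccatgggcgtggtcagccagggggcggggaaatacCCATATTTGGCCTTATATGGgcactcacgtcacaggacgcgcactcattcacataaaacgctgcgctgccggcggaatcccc

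Promoter sequence was found for 7 of the 10 members, Dusp5, Dusp6, Spry1, Spry2, Spred1, Spred2 and Etv5. Motifs were searched on both strands of windows from 250 bases before to 50 bases after each start, over 32851 promoters of 27025 genes. A gene counted if any of its promoters held the motif. The CArG box was present in 0.581% of all genes and in 1 of these 7, Dusp5. It lay there at 2 adjacent places that began at positions -82 and -72 from the start. The ETS site CCGGAAGT (4.31% of all genes), the cyclic AMP response element TGACGTCA (2.03%) and the AP-1 site TGANTCA (8.97%) were present in 0 of the 7. GGAA, the core of the ETS site, was present in all 7 and in 96.5% of all genes. A match of letters is a description of the window and says nothing of binding in these cells.

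Counts on genes ranged from 8933236 to 13428214 per library, and 12844 to 14309 genes had at least 1 count. Levels are given as CPM (counts scaled to library size), as mean ± SD with n = 2, or as RPKM, which divides by exon length and was used to compare genes with each other. Tests were edgeR quasi-likelihood tests on counts over all 13908 genes, with Benjamini-Hochberg adjustment and a threshold of an adjusted p of 0.1. With 2 libraries per group, the p-values rest on the spread between these samples, estimated in 1 fit over all 8 libraries with information shared across genes. The sorted populations carried the marker genes of their labels, since 12 hematopoietic markers summed to 1450 to 2530 CPM in the 4 cluster libraries and 265 to 317 CPM in endothelium. However, cluster libraries also held RNA of marker genes of other cell types. Clusters were themselves sorted as VE-Cadherin+ cells. The source of their endothelial marker RNA, cluster cells or other cells, was not tested. The 12 endothelial markers, none of them at 0 in any library, summed to 1290 and 432 CPM in WT clusters and to 2940 and 792 CPM in Sl/Sl clusters, against 6260 to 7060 CPM in endothelium. The 10 macrophage markers reached 278 to 862 CPM in clusters and 6.92 to 35.0 CPM in endothelium, where 1 to 7 of them were at 0. Mesenchymal markers, 10 collagen and stromal genes, summed to 42.1 CPM in Sl/Sl clusters replicate 1 and to 4880 CPM in replicate 2. These were the lowest and the highest of the 8 libraries. The sums were 885 and 1110 CPM in WT clusters, 1630 and 224 CPM in WT endothelium and 139 and 1200 CPM in Sl/Sl endothelium. Pdgfrb was the only marker of this list at 0, in 2 libraries. The 12 erythroid markers summed to 68.3 and 32.2 CPM in WT clusters, 266 and 24.5 CPM in Sl/Sl clusters and 34.9 to 109 CPM in endothelium. Hba-a1, Hba-a2, Hbb-b1 and Slc4a1 were at 0 in every library, while the embryonic globin gene Hbb-y had 4682 counts over the 8 libraries and was called higher in Sl/Sl than in WT clusters by DESeq2 but not by edgeR.

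**Figure D1:**
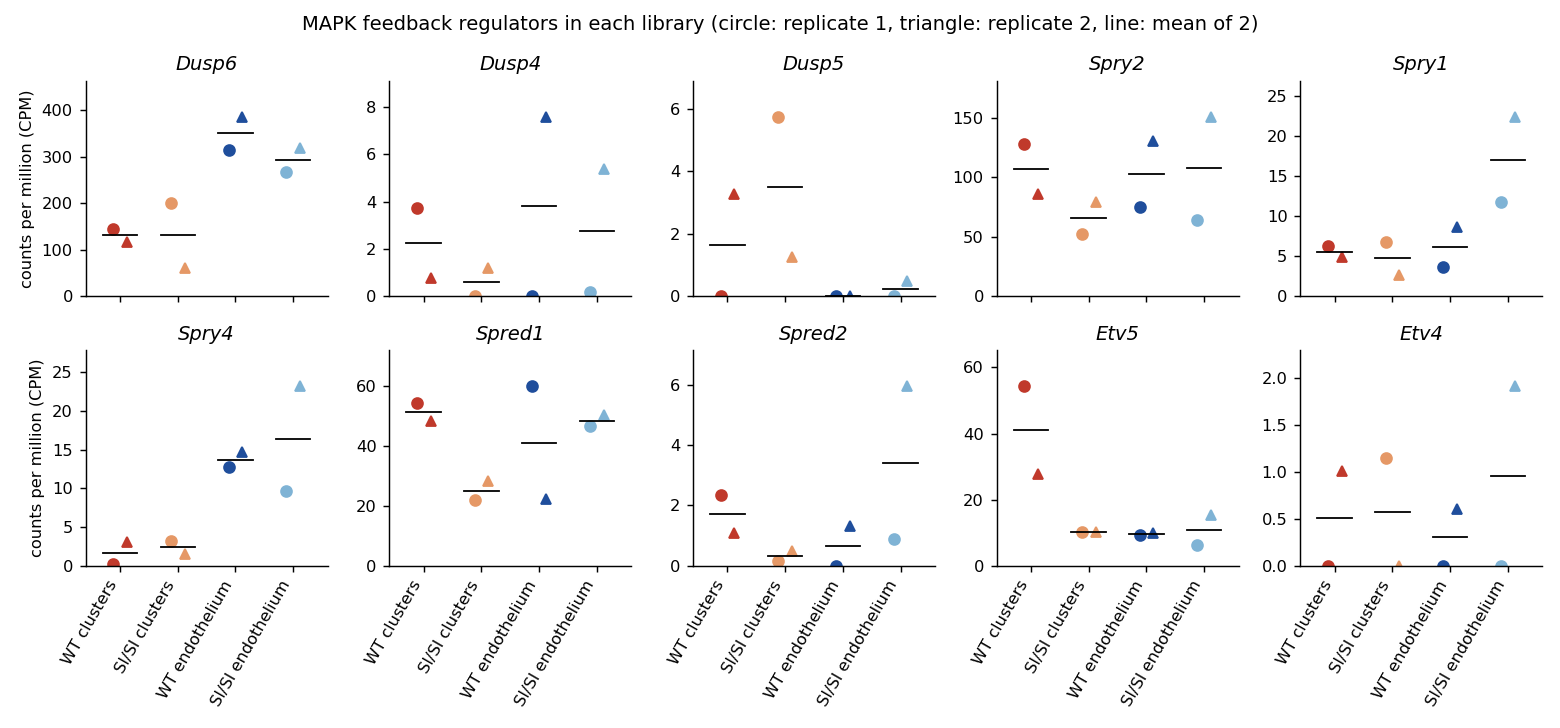
CPM of each of the 10 members in the 8 libraries, with the 4 groups on the x axis, circles for replicate 1, triangles for replicate 2 and a line at the mean of 2. Dusp6 and Spry4 were higher in both libraries of each endothelium group than in any cluster library, and Etv5 was higher in both WT cluster libraries than in the other 6 libraries.

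Per exon length, Dusp6 and Spry2 were the most abundant members in each of the 4 groups. Dusp6 had 120 ± 13.9 RPKM in WT endothelium, 99.5 ± 11.0 in Sl/Sl endothelium, 49.0 ± 9.45 in WT clusters and 48.2 ± 35.1 in Sl/Sl clusters. Spry2 followed with 47.3 ± 17.1 RPKM in WT endothelium and 48.8 ± 27.3 in Sl/Sl endothelium. In WT clusters the order was the other way round, with Spry2 at 54.2 ± 17.0 RPKM, a difference from Dusp6 within their spread. The third place differed between groups. It was held by Etv5 in WT clusters, at 11.4 ± 5.59 RPKM, by Spred1 in Sl/Sl clusters, at 3.69 ± 0.772, and in WT endothelium, at 5.63 ± 3.77, and by Spry1 in Sl/Sl endothelium, at 6.49 ± 2.78. In Sl/Sl endothelium Spry1 and Spred1 (6.48 ± 0.251) could not be ordered. Etv4 was among the 2 least abundant members in each group, at most 0.383 ± 0.542 RPKM, while its relative Etv5 ranged from 2.41 ± 0.0407 RPKM in WT endothelium to the level in WT clusters given above.

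Comparing WT endothelium with WT clusters asked how the members differ between the 2 cell types of the vessel wall. Dusp6, a phosphatase selective for ERK, was 2.69-fold higher in endothelium. Spry4 was also higher in endothelium, and Etv5 was higher in clusters. None of these differences passed the adjusted threshold of the edgeR quasi-likelihood test, in which 0 of the 10 members were called. An unadjusted p under 0.05 in this test was found for 2 of the 10 members and for 2706 of the 13908 genes tested. Over all genes tested, 8.24% were called, 4.56% as higher and 3.68% as lower in endothelium.

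Dusp6 (mm9 chr10:98725865-98730123, plus strand) was measured at 145 and 116 CPM in WT clusters and at 315 and 386 CPM in WT endothelium. Both endothelium libraries lay above both cluster libraries. The log2 fold change was 1.43 (SE 0.47, 95% interval 0.36 to 2.49) with an adjusted p of 0.137 in the edgeR quasi-likelihood test with Benjamini-Hochberg adjustment. In Sl/Sl embryos Dusp6 was at 201 and 61.4 CPM in clusters and at 268 and 319 CPM in endothelium, again without overlap. Here the log2 fold change was 1.16 (SE 0.47, 95% interval 0.11 to 2.22, edgeR Benjamini-Hochberg adjusted p = 0.302). The wider spread lay in the clusters, where replicate 1 had 3.27 times the CPM of replicate 2. In each genotype the cluster library with the larger endothelial marker sum also had more Dusp6. The part of this marker signal in the result was not tested. Without Sl/Sl clusters replicate 1 the log2 fold change was 2.26 and passed the threshold (edgeR Benjamini-Hochberg adjusted p = 0.0125), and without replicate 2 of that group it was 0.546.

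**Figure D2:**
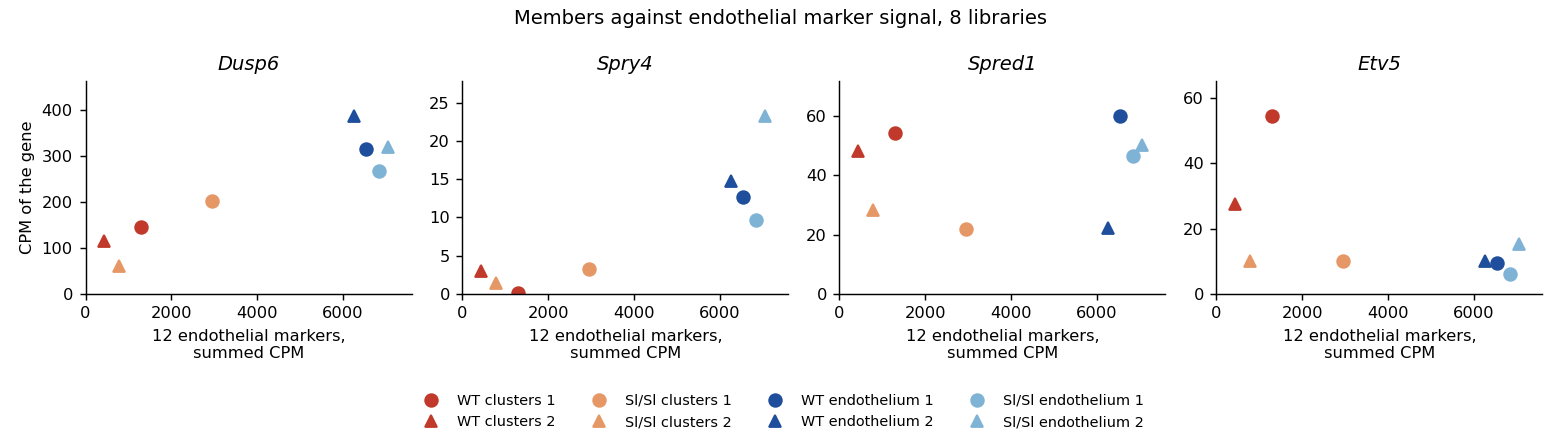
CPM of Dusp6, Spry4, Spred1 and Etv5 (y axes) against the summed CPM of 12 endothelial markers (x axis) in the 8 libraries, colored by group with circles for replicate 1 and triangles for replicate 2. Among clusters, the library with 2940 CPM of endothelial markers had the highest Dusp6, at 201 CPM. The highest Etv5, at 54.3 CPM, was in WT clusters replicate 1, with 1290 CPM of endothelial markers.

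Spry4 (mm9 chr18:38745919-38760922, minus strand), an inhibitor of growth factor signaling to Ras and Raf, had 2 and 39 counts in WT clusters and 160 and 145 counts in WT endothelium. It was at 1.60 ± 2.03 CPM in WT clusters and 13.7 ± 1.36 CPM in WT endothelium (n = 2 each). The groups did not overlap, but the log2 fold change of 3.08 had a 95% interval from -0.30 to 6.46 (edgeR Benjamini-Hochberg adjusted p = 0.301). It was 6.19 without WT clusters replicate 2 and 2.17 without WT clusters replicate 1, the library with 2 counts. In Sl/Sl embryos it was at 39 and 21 counts in clusters against 110 and 195 counts in endothelium, a log2 fold change of 2.81 (SE 1.48, edgeR Benjamini-Hochberg adjusted p = 0.425). The 4 endothelium libraries thus lay at 9.63 to 23.2 CPM and the 4 cluster libraries at 0.173 to 3.20 CPM.

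Etv5 (mm9 chr16:22381386-22439643, minus strand) went the other way in WT embryos. It was at 54.3 and 27.6 CPM in WT clusters and at 9.30 and 9.90 CPM in WT endothelium, so that the groups did not overlap. The log2 fold change of endothelium over clusters was -2.09 (SE 0.82, 95% interval -3.95 to -0.24), a 4.26-fold lower level, with an adjusted p of 0.203 in the edgeR test with Benjamini-Hochberg adjustment. In Sl/Sl embryos the same comparison gave a log2 fold change of 0.09 (95% interval -1.70 to 1.88), with 10.1 CPM in each of the cluster libraries and 6.13 and 15.4 CPM in endothelium. Leaving out WT clusters replicate 1, the library with the highest Etv5, gave a log2 fold change of -1.52 in WT embryos.

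The other members counted in all libraries showed smaller contrasts between the WT cell types. Spry2, the most abundant Sprouty gene, had 128 and 86.0 CPM in WT clusters and 75.1 and 131 CPM in WT endothelium, with a log2 fold change of -0.05 (95% interval -1.15 to 1.05). Spred1, which binds neurofibromin and brings it to Ras at the membrane, was at 51.4 ± 4.24 CPM in WT clusters and 41.1 ± 26.7 CPM in WT endothelium (n = 2 each). Spry1 was at 5.56 ± 1.04 and 6.13 ± 3.61 CPM in the same groups. For each of these genes the groups overlapped. In all, 2 of the 10 members (Dusp6 and Spry4) were higher in both WT endothelium libraries than in both WT cluster libraries and 1 (Etv5) was lower, against 25.1% and 25.6% of all genes tested. The median log2 fold change of the members was -0.19, and that of all genes was -0.003. For the 6 members counted in all 8 libraries the median was 0.04.

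In Sl/Sl embryos, 9 of the 10 log2 fold changes of endothelium over clusters were above 0, with a median of 1.06 against -0.066 for all genes. Groups did not overlap for 5 members that were higher in endothelium, Dusp6, Spry1, Spry4, Spred1 and Spred2, and for 1 that was lower, Dusp5, while 21.9% and 24.4% of all genes did so. Spred1 was at 21.9 and 28.2 CPM in Sl/Sl clusters and at 46.5 and 50.2 CPM in Sl/Sl endothelium (log2 fold change 0.95, 95% interval -0.32 to 2.21). Spry1 was at 6.82 and 2.66 CPM in Sl/Sl clusters and 11.7 and 22.4 CPM in Sl/Sl endothelium (log2 fold change 1.85, 95% interval -0.87 to 4.56). By the edgeR quasi-likelihood test 0 of 10 members were called, where 2.83% of all genes were called, 0.985% as higher and 1.84% as lower. An unadjusted p under 0.05 in this test was found for 1 member, Dusp6, and for 1997 of the 13908 genes tested. DESeq2 on the same 8 libraries also called 0 of 10 in Sl/Sl embryos, against 12.7% of all genes. In WT embryos DESeq2 called 3 members, Dusp6 (log2 fold change 1.4, DESeq2 Benjamini-Hochberg adjusted p = 0.0291), Etv5 (-2.12, adjusted p = 0.0457) and Spry4 (3.06, adjusted p = 0.0999), where 19.8% of all genes given an adjusted p by DESeq2 were called.

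**Figure D3:**
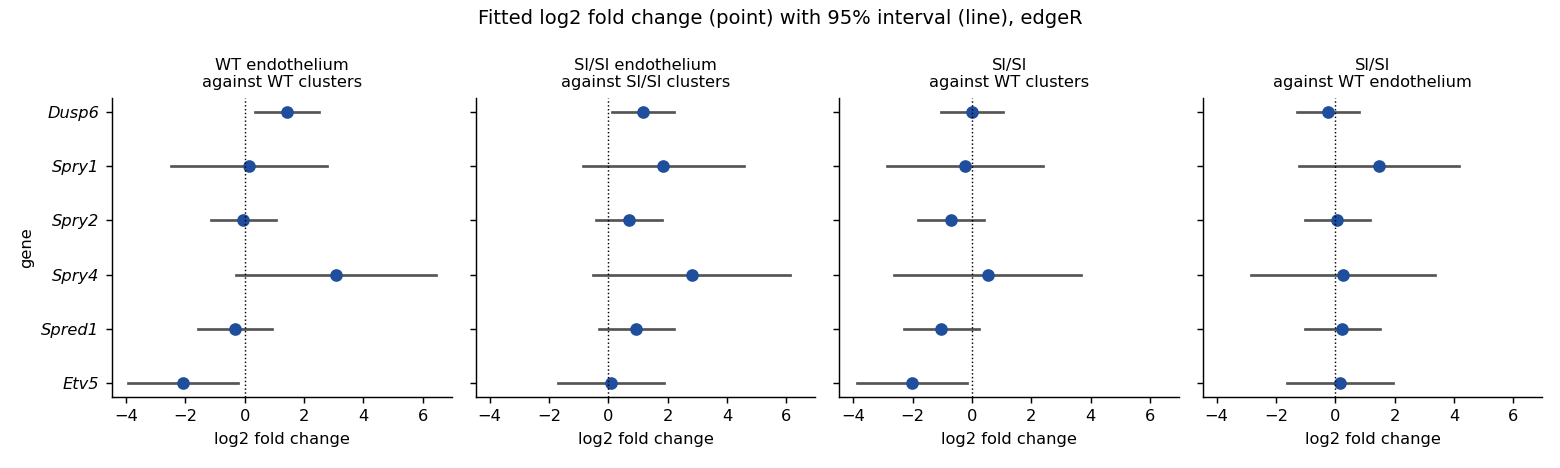
Fitted log2 fold changes (points, x axis) with 95% intervals (lines) of the 6 members counted in all 8 libraries (y axis), in 4 comparisons by edgeR. The intervals exclude 0 for Dusp6 in both comparisons of endothelium with clusters and for Etv5 in WT endothelium against WT clusters and in Sl/Sl against WT clusters.

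Loss of Kitl was assessed in clusters, which carry its receptor Kit, by comparing Sl/Sl clusters with WT clusters. Etv5 was 4.06-fold lower in Sl/Sl clusters, and Spred1 was 2.05-fold lower, but neither passed the adjusted threshold. Dusp6 differed by less than the spread between replicates. In the edgeR quasi-likelihood test 0 of the 10 members were called, as were 0% of all genes, while 1 member (Etv5) and 587 genes had an unadjusted p under 0.05. DESeq2 called 175 genes (1.36%), with 0 members among them.

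Etv5 counts were 629 and 355 in WT clusters and 123 and 144 in Sl/Sl clusters. At 10.1 CPM in each library, Sl/Sl clusters lay below both WT cluster libraries (41.0 ± 18.8 CPM, n = 2) and among the values of the endothelium libraries (6.13 to 15.4 CPM). The log2 fold change was -2.02 (SE 0.82, 95% interval -3.87 to -0.17), with an adjusted p of 1 by the edgeR test and 0.315 by DESeq2 after Benjamini-Hochberg adjustment. Leaving out 1 library at a time gave log2 fold changes from -1.45, without WT clusters replicate 1, to -2.43, without WT clusters replicate 2. In the same comparison 11 of 12 endothelial markers had a log2 fold change above 0 (median 0.98, 5 at an unadjusted p under 0.05). So had 10 of 10 mesenchymal markers (median 1.30, 0 at an unadjusted p under 0.05), but their summed levels overlapped between the groups. These sums were 42.1 and 4880 CPM in Sl/Sl clusters and 885 and 1110 CPM in WT clusters, so the rise lay in Sl/Sl replicate 2. By edgeR or DESeq2, 0 of either list were called. The part of cell composition in the differences between Sl/Sl and WT clusters was not tested. Spred1 was at 54.4 and 48.4 CPM in WT clusters and 21.9 and 28.2 CPM in Sl/Sl clusters, without overlap (log2 fold change -1.03, 95% interval -2.30 to 0.23, edgeR Benjamini-Hochberg adjusted p = 1). Spry2 was at 128 and 86.0 CPM against 52.5 and 79.0 CPM, again without overlap (log2 fold change -0.70, 95% interval -1.81 to 0.40).

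Spred2, a relative of Spred1 that also restrains Ras signaling, had 27 and 14 counts in WT clusters against 2 and 7 counts in Sl/Sl clusters. Thus 4 of the 10 members (Spry2, Spred1, Spred2 and Etv5) were lower in both Sl/Sl cluster libraries, against 16.2% of all genes, and 0 were higher in both, against 16.4%. The median log2 fold change of the members was -0.47 against 0.03 over all genes. Dusp6 was at 130 ± 20.3 CPM in WT clusters and 131 ± 98.6 CPM in Sl/Sl clusters (n = 2 each), with a log2 fold change of 0.01 and a 95% interval from -1.03 to 1.05. It was 0.627 without Sl/Sl clusters replicate 2 and -1.08 without replicate 1. Kit itself, on which the cells were sorted, was at 379 and 252 CPM in WT clusters and 241 and 225 CPM in Sl/Sl clusters. In bulk samples of sorted cells, fewer expressing cells and less RNA per cell cannot be told apart.

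Endothelium of WT embryos held most Kitl (1250 and 923 counts), and there Dusp6, Spry2, Spry4 and Etv5 overlapped between the genotypes. By the edgeR quasi-likelihood test 0 of 10 members were called, 0 had an unadjusted p under 0.05, and 0% of all genes were called, with 580 at an unadjusted p under 0.05. DESeq2 called 178 genes (1.35%), and 0 members were among them. Dusp6 was at 350 ± 50.1 CPM in WT and 293 ± 36.7 CPM in Sl/Sl endothelium (n = 2 each), a log2 fold change of -0.26 with a 95% interval from -1.30 to 0.79. Spry1 was the 1 member without overlap, at 3.58 and 8.69 CPM in WT and at 11.7 and 22.4 CPM in Sl/Sl endothelium (log2 fold change 1.48, 95% interval -1.21 to 4.16). Of all genes, 13.5% were higher and 14.9% lower without overlap in this comparison. Spry4 was at 13.7 ± 1.36 and 16.4 ± 9.62 CPM, Spry2 at 103 ± 39.9 and 108 ± 61.6 CPM, and Etv5 at 9.60 ± 0.424 and 10.8 ± 6.54 CPM in WT and Sl/Sl endothelium. The median log2 fold change of the 10 members was 0.25, and that of all genes was -0.001.

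Whether the genotype difference depended on cell type was tested as an interaction, the log2 fold change of Sl/Sl over WT in clusters minus that in endothelium. Etv5 had the smallest p of the 10 members, with an interaction of -2.18 (SE 1.13, 95% interval -4.74 to 0.38, edgeR Benjamini-Hochberg adjusted p = 0.91). Spred1 followed at -1.27 (SE 0.79, 95% interval -3.05 to 0.51). For 8 of the 10 members the interaction was below 0, with a median of -1.45 against 0.096 over all genes. Of the 6 members counted in all 8 libraries, 4 were below 0 and 2 above, with a median of -1.02. The edgeR test called 0 of 10 members and 0% of all genes, with 0 members and 736 genes at an unadjusted p under 0.05, and DESeq2 called 175 genes (1.3%) and 0 members. Leaving out 1 library at a time gave interactions of Etv5 from -1.34, without Sl/Sl endothelium replicate 2, to -2.71, without Sl/Sl endothelium replicate 1. For the members, a difference between the cell types in the response to the deletion was not detected with 2 libraries per group.

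The 4 sparse members are given by their counts. Dusp5, a nuclear phosphatase of ERK, had 0 and 42 counts in WT clusters and 70 and 18 in Sl/Sl clusters, but 0 and 0 in WT endothelium and 0 and 4 in Sl/Sl endothelium. A count of 0 allows up to 3 counts, by counting error alone. Dusp5 was thus found above this floor in 3 of 4 cluster libraries and 1 of 4 endothelium libraries. Dusp4, another nuclear phosphatase, had 43 and 10 counts in WT clusters, 0 and 17 in Sl/Sl clusters, 0 and 75 in WT endothelium and 2 and 45 in Sl/Sl endothelium. Its split in WT endothelium was shared by 964 genes of that group, which had at most 3 counts in 1 replicate and at least 50 in the other. Spred2 had 0 and 13 counts in WT endothelium and 10 and 50 in Sl/Sl endothelium. Etv4 had 0 to 16 counts, with 1 of the 2 libraries at 0 in every group. Their fitted log2 fold changes rest on these few counts, and their standard errors ranged from 2.55 to 3.88 in WT endothelium against WT clusters.

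Dusp6 lies on the same chromosome as the deleted gene, 748 kb from Kitl in mm9 (Kitl at chr10:99478458-99563046), so its counts were checked for loss with the Sl deletion. Kitl had 110 and 0 counts in WT clusters, 1 and 3 in Sl/Sl clusters, and 6 and 2 in Sl/Sl endothelium. In endothelium its fitted log2 fold change was -7.91, and even this had an adjusted p of 1 in the edgeR test with Benjamini-Hochberg adjustment. On the far side of Kitl, Tmtc3, Cep290 and 4930430F08Rik had 0 to 5 counts in the Sl/Sl libraries. Tmtc3 had 899 and 905 counts in WT endothelium against 5 and 4 counts in Sl/Sl endothelium. In clusters it had 587 and 59 counts in WT embryos against 5 and 0 in Sl/Sl embryos. Dusp6 lay on the other side and kept 2445 and 878 counts in Sl/Sl clusters and 3055 and 2680 in Sl/Sl endothelium. Of the 3 genes between Dusp6 and Kitl, Gm20110 and Gm18409 had 0 counts in every library. Csl, 256 kb from Kitl, had 13 to 23 counts in the WT libraries and 8 to 20 in the Sl/Sl libraries. Csl resembles another gene closely, and how reads with several matches were counted is not given in the sources used here, so its counts are uncertain.

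**Figure D4:**
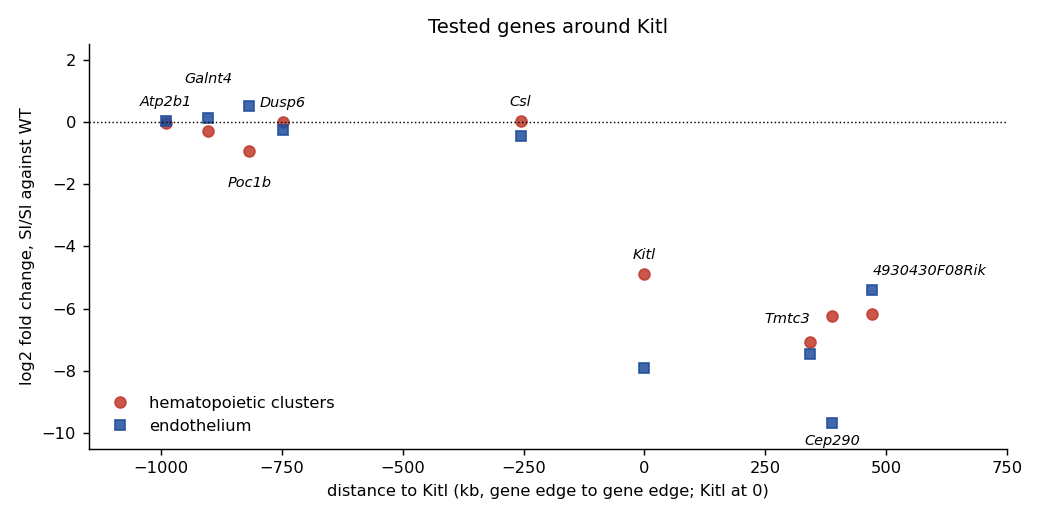
Fitted log2 fold change of Sl/Sl over WT (y axis) for the 9 tested genes within 2 Mb of Kitl by their distance from it in kb (x axis), in clusters (circles) and endothelium (squares). Dusp6 lies near 0 in both cell types, while Kitl, Tmtc3, Cep290 and 4930430F08Rik lie between -9.67 and -4.89. Fitted values of genes near 0 counts depend on the prior count.

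The remaining genes of the pathway were counted in 4 lists. The Ras to ERK cascade (22 genes, from adaptors such as Grb2 to the kinases downstream of Ras) had 0 genes called in any of the 5 comparisons by the edgeR quasi-likelihood test. In WT endothelium against WT clusters 5 of the 22 had an unadjusted edgeR p under 0.05, as had 2706 of all 13908 genes tested. DESeq2 called 1 of the 22 as higher and 3 as lower in endothelium, where it called 19.8% of all genes. In Sl/Sl endothelium against Sl/Sl clusters DESeq2 called 1, Rasa1, as higher, where it called 12.7% of all genes. The lists and the members were chosen with results of these data known, and their counts are descriptions.

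Among 15 tested genes for other negative regulators and PEA3 relatives, 2 were called higher in WT endothelium than in WT clusters. Il17rd (Sef), an antagonist of FGF receptor signaling, rose from 25 and 19 counts to 262 and 264 (log2 fold change 3.70, SE 0.86, edgeR Benjamini-Hochberg adjusted p = 0.0443). Lrig1, which promotes the degradation of several receptor tyrosine kinases, had 1 and 0 counts in WT clusters and 545 and 401 in WT endothelium (edgeR Benjamini-Hochberg adjusted p = 0.00998). Dusp1 in WT embryos had a log2 fold change of 1.12 and did not pass (edgeR Benjamini-Hochberg adjusted p = 0.103). In Sl/Sl embryos, the genes called higher in endothelium were Lrig1 and Dusp1, the latter an early induced phosphatase of MAP kinases (log2 fold change 1.66, SE 0.34, edgeR Benjamini-Hochberg adjusted p = 0.0508). Il17rd in that comparison had a log2 fold change of 2.62 and did not pass (edgeR Benjamini-Hochberg adjusted p = 0.181). DESeq2 called Il17rd, Dusp1 and Lrig1 higher in endothelium in both genotypes. Over all genes, edgeR called 4.56% as higher in endothelium in WT embryos and 0.985% in Sl/Sl embryos. DESeq2 called 19.8% of all genes in either direction in WT embryos and 12.7% in Sl/Sl embryos. With genotype, 0 of the 15 were called in either cell type by edgeR or DESeq2, and 0 had an unadjusted p under 0.05.

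Of 23 receptor tyrosine kinases tested, 5 were called higher and 3 lower by edgeR in WT endothelium than in WT clusters, where 4.56% and 3.68% of all genes were called. The list holds Kit, a sort marker, and markers of the sorted cell types such as Kdr. The same comparison in Sl/Sl embryos gave 2 called higher and 3 lower, where 0.985% and 1.84% of all genes were called. In WT embryos the VEGF receptors Kdr and Flt1 and the ephrin receptor Ephb4 were higher in endothelium, with log2 fold changes of 3.69, 2.72 and 3.34. Kit, used in the sort, was lower (log2 fold change -1.98), as were Flt3 and Csf1r, receptors of hematopoietic progenitors and macrophages, which had 617 and 964 and 448 and 300 counts in WT clusters and at most 5 counts in WT endothelium. Between genotypes, 0 of the 23 were called by edgeR or DESeq2 in either cell type, with 1 in clusters and 0 in endothelium at an unadjusted p under 0.05.

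Genes induced early after ERK activation, such as Fos, Egr1 and Myc, did not separate WT endothelium from WT clusters, with 0 of 14 tested called by edgeR or DESeq2, 1 at an unadjusted p under 0.05 and a median log2 fold change of -0.18. In Sl/Sl embryos the median of endothelium over clusters was 0.94. An unadjusted edgeR p under 0.05 was found for 4 of the 14 and for 1997 of the 13908 genes tested. The edgeR test called 0 of the 14, but DESeq2 called 3, Fosl2, Junb and Mcl1, where it called 12.7% of all genes. In Sl/Sl clusters against WT clusters 12 of the 14 log2 fold changes were below 0, with a median of -0.72 against 0.03 for all genes, but 0 were called by edgeR or DESeq2. The only one at an unadjusted p under 0.05 was Mcl1, an antagonist of apoptosis (log2 fold change -0.88, SE 0.32, edgeR Benjamini-Hochberg adjusted p = 1). In endothelium the median was 0.12, with 9 of 14 above 0, and 0 were called by edgeR or DESeq2 or had an unadjusted p under 0.05.

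**Figure D5:**
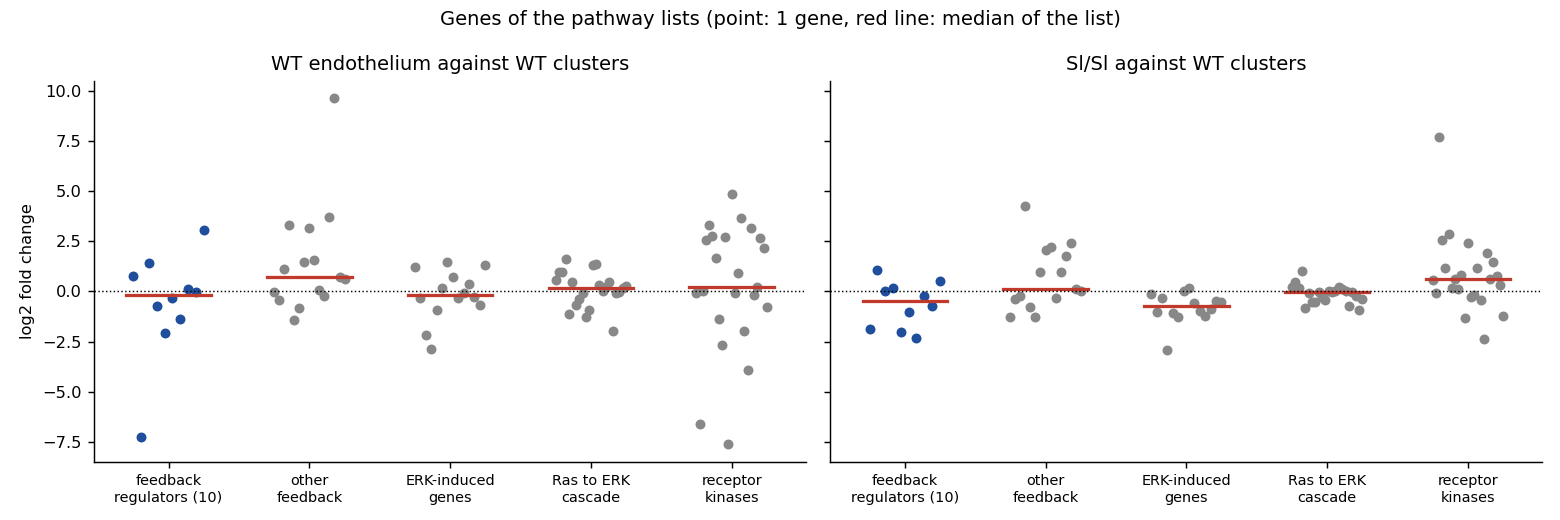
Log2 fold changes (y axis) of the 10 members, labeled feedback regulators, and of the tested genes of 4 pathway lists (x axis). The comparisons are WT endothelium against WT clusters and Sl/Sl against WT clusters, with 1 point per gene and a red line at the median. The medians of the members were -0.19 and -0.47, and those of the ERK-induced genes were -0.18 and -0.72.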

How the data were processed

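Smart-seq2 libraries of 100 sorted cells, 2 for each of 4 groups, were sequenced as 75 bp read pairs. The authors aligned reads to mm9 with STAR 2.4.2a, merged lanes, and made the deposited raw counts per gene with featureCounts of Subread 1.4.5; their own tests used DESeq2 1.12.4. The deposited table also lists exon lengths. The annotation and strand setting are not given in the sources used here. Samples were grouped by their labels. The counts carry no molecular identifiers, so limits drawn from them cover counting error only. Counts were tested with edgeR 4.0.16 (limma 3.58.1, R 4.3.3), using TMM scaling, filterByExpr over the 4 groups (13908 of 24015 genes kept), a quasi-likelihood test on all 8 libraries and Benjamini-Hochberg adjustment over all genes kept, with a threshold of 0.1. The common dispersion was 0.667. Standard errors are implied by the fold change and its F statistic. CPM used TMM-scaled totals and RPKM plain totals. A further 27 names read as calendar dates in the deposited table and are not printed. Alternatives were DESeq2 1.42.0, RLE scaling, other filters, a threshold of 0.05, 4 libraries, a replicate block and leaving out each library. The scripts were tested on simulated data.

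The members and gene lists were chosen with earlier results of these data known. Named genes were the 10 members, Kit, Kitl, genes between Dusp6 and Kitl, and up to 3 genes per direction and list with the smallest p among those called between WT cell types. The most similar genes were to be named for members called there, of which there were 0. Tmtc3, Cep290, 4930430F08Rik, Mcl1, Dusp1, the genes named from DESeq2 calls and the restriction of fold changes to 6 members counted in all libraries were chosen after values were seen.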

Additional observations from a re-analysis of the deposited data

How the results depend on the processing

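Members called in WT endothelium against WT clusters numbered 0 in the reported fit, 3 by DESeq2 on 8 libraries, 2 by DESeq2 on the 4 libraries compared, 1 without a filter on low counts and 1 by edgeR on the 4 libraries. In Sl/Sl endothelium against Sl/Sl clusters, 1 member was called without the filter, and leaving out 1 library gave 0 to 1, the 1 being Dusp6 without Sl/Sl clusters replicate 1. In the genotype comparisons and the interaction, no alternative that was run called a member.

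For the 6 members counted in all libraries, 335 of 367 alternative log2 fold changes kept their direction and side of the threshold. Of the others, 9 newly passed it and 23 turned direction, in results that did not pass. Apart from the block value given below, these 23 were on leaving out a library. A loss of passing could not occur, since 0 members passed in the reported fit. The alternative with only a stricter threshold reused the reported log2 fold changes. Its values are among the 335 and could not change. Over left-out libraries, on the log2 scale, WT endothelium against WT clusters gave -0.636 to 0.643 for Spry1, -0.513 to 0.297 for Spry2 and -1.21 to 0.223 for Spred1. Sl/Sl endothelium against Sl/Sl clusters gave -0.0582 to 1.18 for Spry2 and -0.742 to 0.585 for Etv5. Sl/Sl against WT clusters gave -1.08 to 0.627 for Dusp6, -1.06 to 0.295 for Spry1 and -0.377 to 3.67 for Spry4. Sl/Sl against WT endothelium gave -0.698 to 0.556 for Spry2, -0.515 to 0.769 for Spry4, -0.294 to 1.12 for Spred1 and -0.655 to 0.684 for Etv5. The interaction gave -0.827 to 0.883 for Dusp6, -1.26 to 0.0147 for Spry2 and -0.641 to 3.41 for Spry4.

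Whether the replicate numbers pair the samples is not known. Correlations of the deviations of same-numbered libraries ran from -0.111 to 0.157 over the 6 pairs of groups. With 2 libraries per group these values cannot decide it. The replicate block changed calls over all genes, with 8 called in Sl/Sl against WT clusters where the reported fit called 0. With the replicate block 0 members were called in each of the 5 comparisons, and Dusp6 in Sl/Sl against WT clusters turned from 0.00928 to -0.0667.

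Low counts did not limit Dusp6, with 878 to 3961 counts in every library, but limited Dusp4, Dusp5, Spred2 and Etv4, which had 0 counts in at least 1 library. In WT endothelium, Dusp4 had 0 counts in replicate 1, with 12832650 counts on genes, and 75 in replicate 2, with 10495261. The part of depth in the counts of 0 was not tested. The small number of libraries per group limits each comparison. RNA of marker genes of other cell types limits those that use clusters, and mesenchymal markers also varied between the libraries of endothelium.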
